A study of Homo sapiens with 10 samples.

Results

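NF-Y is a transcription factor built from 3 different proteins, which are encoded by NFYA, NFYB and NFYC. NFYB and NFYC carry histone folds and form a dimer, and NFYA joins that dimer and makes the contact with the CCAAT sequence in promoters. The factor is known for its sites in promoters of cell cycle, endoplasmic reticulum stress and sterol synthesis genes. The 3 subunit genes were picked by symbol out of the 31015 genes measured, and their nascent RNA, total RNA and labelled share in these libraries were known when they were picked. Their values are therefore given as a description, with no test.

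The measurements come from SLAM-seq of 22RV1, an established line of prostate cancer cells. In this assay, RNA made during a 10 min pulse carries 4-thiouridine, and its reads show T>C conversions. Cells were left untreated (control) or treated for 4 h with 20 µM SRPIN340, an inhibitor of the splicing factor kinase SRPK1, with 50 µM Endovion, which the study presents as an SRPK1 inhibitor, with THZ531, which inhibits the transcription kinases CDK12 and CDK13, or with THZ531 and Endovion together. The concentration of THZ531 is 100 nM in the study's methods and 150 nM in the description of the series. Each of the 5 groups has 2 libraries of bulk RNA from whole cultures, so fewer cells that express a gene and less RNA per cell cannot be told apart. Nothing in the sources used here says that the libraries of a group came from separate cultures, so the p-values below measure only the spread between these samples, which may be technical.

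The libraries hold 19315560 to 30047897 reads on genes, of which 1011598 to 1576121 carry a T>C conversion, a labelled share of 5.04% to 5.70%. T>C reads are called nascent RNA and all reads total RNA. Every library was labelled, so the share of T>C reads that would arise without the label, as from read errors or sequence variants, was not measured. Nascent RNA is thus a name for T>C reads here, and some of them may not be newly made RNA. Levels are in CPM (counts per 1000000), relative to the T>C reads of the library for nascent RNA and to all its reads for total RNA, after TMM scaling. Among the luminal prostate markers, KRT18 stood at 354 to 484 CPM in total RNA (here by reads on genes, with no TMM scaling), while KLK3 reached only 8.33 CPM and TMPRSS2 only 2.66 CPM. Of 9 markers of other cell types, 7 had at most 6 reads in any library, COL1A1 had 40 to 83 reads and SYP, a neuroendocrine and neuronal marker, had 419 to 743 reads.

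NFYA lies on the plus strand of chromosome 6 (hg38, 41072974 to 41102403), NFYB on the minus strand of chromosome 12 (104117086 to 104138241) and NFYC on the plus strand of chromosome 1 (40691648 to 40771603). The reads were counted in 3′ UTR intervals. These are 2566 bp for NFYA (41097411 to 41099976), 2660 bp for NFYB (104117077 to 104119736) and 775 bp for NFYC (40770829 to 40771603). The annotated 3′ UTR of NFYA runs 2427 bases past the end of its interval, and reads there were not counted. On the opposite strand, OARD1 overlaps 377 bp of the NFYA interval and the gene ENSG00000287678 overlaps all 2566 bp. The sources used here do not say whether counting used the strand, so reads of NFYA and of these antisense genes cannot be told apart.

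NF-Y subunits can be set beside their own recognition sequence. In RefSeq promoter windows of GRCh38.p14, from 250 bases before to 50 after each start, CCAAT or its complement ATTGG stood in 34.6% of 35116 windows. The windows of NFYA and NFYC hold it, and NFYB was not matched. The sequences below are shown because they are the sites by which the factor is known, in the 2 matched subunit genes and in CCNB1 and HERPUD1, list genes whose nascent RNA changed. Capitals mark CCAAT or ATTGG, and each is written 5′ to 3′ on the plus strand, which is also the strand of these genes.
NFYA, chr6:41073009-41073023: ggagcctctgATTGG
NFYC, first start, chr1:40691596-40691620: tcgccccttcCCAATtctcgcgaga
NFYC, second start, chr1:40709220-40709244: acgtgaacagCCAATcgtggctttg
NFYC, second start, chr1:40709261-40709285: agcagttcagCCAATgggaccactg
CCNB1, chr5:69167053-69167077: ccggcagccgCCAATgggaagggag
CCNB1, chr5:69167085-69167109: cacgaacaggCCAATaaggagggag
HERPUD1, chr16:56932049-56932073: tccgcctcagCCAATgggcggcagc
Further matches in the windows of NFYC and HERPUD1 are not shown. The NFYA match begins 45 bases after the start and lies at the very end of the window. The first NFYC match begins 98 bases before the first start, and the CCNB1 matches begin 87 and 55 bases before theirs. A match describes the letters in the window and does not show that the factor binds there.

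NFYA, the subunit that reads the CCAAT sequence, had more nascent RNA in all 8 treated libraries than in either control library. The control libraries had 16 and 7 T>C reads on NFYA, or 10.2 and 5.57 CPM. SRPIN340 gave 30.9 and 44.7 CPM, and Endovion 50.3 and 31.5 CPM. THZ531 gave 53.6 and 122 CPM, and THZ531 with Endovion 78.2 and 67.3 CPM. The 4 treated groups were all above the control libraries, and the replicates were furthest apart under THZ531. In order of their means, SRPIN340 and Endovion overlapped, THZ531 with Endovion lay above both, and THZ531 overlapped with the combination.

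The fitted log2 fold changes of nascent NFYA against control were 2.22 ± 0.43 (SE) for SRPIN340, 2.34 ± 0.43 for Endovion, 3.40 ± 0.41 for THZ531 and 3.16 ± 0.42 for the combination. All 4 rest on the same 2 control libraries and their few T>C reads. By log2 fold change NFYA ranked 95, 120, 37 and 54 from the top of 9946 genes in these comparisons. Without control replicate 1, in which NFYA was higher, the 4 values were 2.75, 2.87, 3.94 and 3.69. Without THZ531 replicate 2, the value for THZ531 was 2.72.

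Total NFYA RNA had the same order of groups. Its levels were 4.60 and 3.74 CPM in control, 7.81 and 14.4 CPM with SRPIN340, 21.1 and 13.6 CPM with Endovion, 17.5 and 51.8 CPM with THZ531 and 26.6 and 23.2 CPM with THZ531 and Endovion. No treated library reached down to the control libraries. The log2 fold changes of total RNA were 1.41 ± 0.61 (SE), 2.05 ± 0.61, 3.04 ± 0.61 and 2.57 ± 0.61 in the same order of treatments. Without THZ531 replicate 2, which had 966 reads on NFYA against 474 in replicate 1, the change under THZ531 was 2.01. Without SRPIN340 replicate 2, that under SRPIN340 was 0.90.

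**Figure D1:**
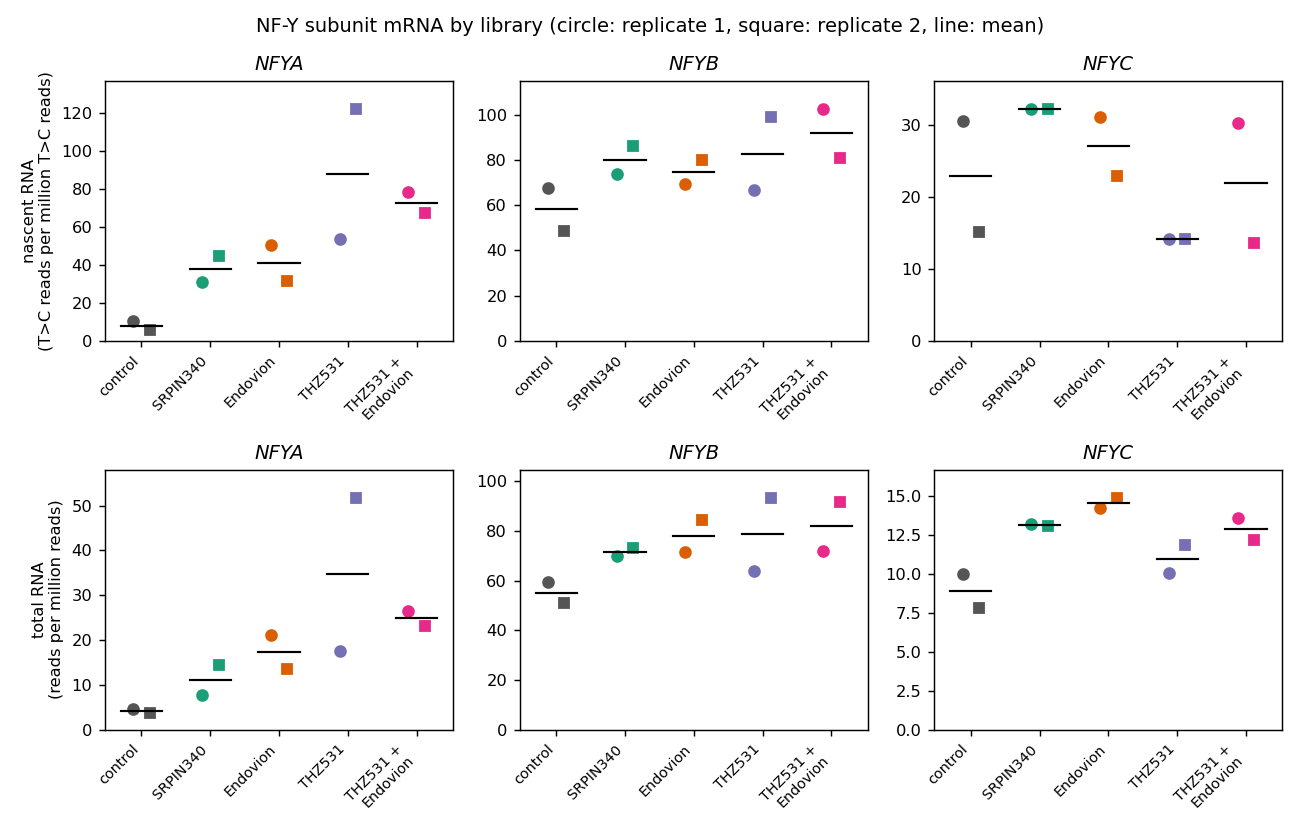
Nascent RNA (upper row, in CPM of T>C reads) and total RNA (lower row, in CPM of all reads) of NFYA, NFYB and NFYC in each of the 10 libraries, with the mean of each group as a line. All 8 treated libraries lie above both control libraries for NFYA in both rows, whereas both THZ531 libraries lie below control for nascent NFYC.

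NFYB, a histone-fold subunit, differed from control by much less than NFYA did. Its nascent levels were 67.7 and 48.6 CPM in control, 73.8 and 86.3 CPM with SRPIN340, 69.3 and 80.2 CPM with Endovion, 66.5 and 98.9 CPM with THZ531 and 103 and 81.0 CPM with the combination. THZ531 replicate 1 lay just under the higher control library, and the other 7 treated libraries lay above both. Between neighbouring treated groups in order of their means, the libraries overlapped.

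The log2 fold changes of nascent NFYB were 0.45 ± 0.27 (SE) for SRPIN340, 0.35 ± 0.28 for Endovion, 0.48 ± 0.27 for THZ531 and 0.65 ± 0.27 for the combination. Without control replicate 1, the values for SRPIN340, Endovion and THZ531 were 0.73, 0.62 and 0.76, and without control replicate 2 they were 0.24, 0.14 and 0.27. The value for THZ531 was 0.76 without THZ531 replicate 1 and 0.19 without THZ531 replicate 2. In total RNA, NFYB stood at 59.3 and 50.9 CPM in control and at 64.0 to 93.4 CPM in the 8 treated libraries. The total log2 fold changes were 0.38 ± 0.17 (SE), 0.50 ± 0.17, 0.51 ± 0.17 and 0.57 ± 0.17, and the value was 0.16 for THZ531 without THZ531 replicate 2 and 0.23 for SRPIN340 without control replicate 2.

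NFYC, the other histone-fold subunit, had less nascent RNA in both THZ531 libraries than in either control library. The control libraries had 30.7 and 15.1 CPM, the SRPIN340 libraries 32.2 and 32.3 CPM and the Endovion libraries 31.2 and 22.9 CPM. THZ531 gave 14.2 and 14.1 CPM, and the combination 30.3 and 13.7 CPM. The control libraries differed from each other more than those of SRPIN340, Endovion or THZ531 did.

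The log2 fold changes of nascent NFYC were 0.48 ± 0.43 (SE) for SRPIN340, 0.23 ± 0.45 for Endovion, -0.71 ± 0.47 for THZ531 and -0.06 ± 0.46 for the combination. All 4 values depend on which control library is kept. Without control replicate 1, the higher one, they were 1.10, 0.85, -0.08 and 0.56, and without control replicate 2 they were 0.07, -0.17, -1.11 and -0.46, so that the sign turned for Endovion and for the combination. The Endovion value was also -0.02 without Endovion replicate 1 and 0.43 without Endovion replicate 2. For the combination, the value was -0.76 without combination replicate 1 and 0.39 without combination replicate 2. Nascent counts of NFYC were low, between 14 and 52 T>C reads in a library.

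Total NFYC RNA lay above both control libraries in every treated library, THZ531 included. It stood at 9.98 and 7.82 CPM in control, 13.2 and 13.1 CPM with SRPIN340, 14.2 and 14.9 CPM with Endovion, 10.02 and 11.8 CPM with THZ531 and 13.5 and 12.1 CPM with the combination. THZ531 replicate 1 was just above the higher control library. The total log2 fold changes were 0.56 ± 0.19 (SE), 0.70 ± 0.19, 0.29 ± 0.19 and 0.53 ± 0.19, and that under THZ531 was 0.48 without control replicate 1, 0.09 without control replicate 2 and 0.11 without THZ531 replicate 2. Without control replicate 2, the SRPIN340 value was 0.36 and the combination value 0.32.

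**Figure D2:**
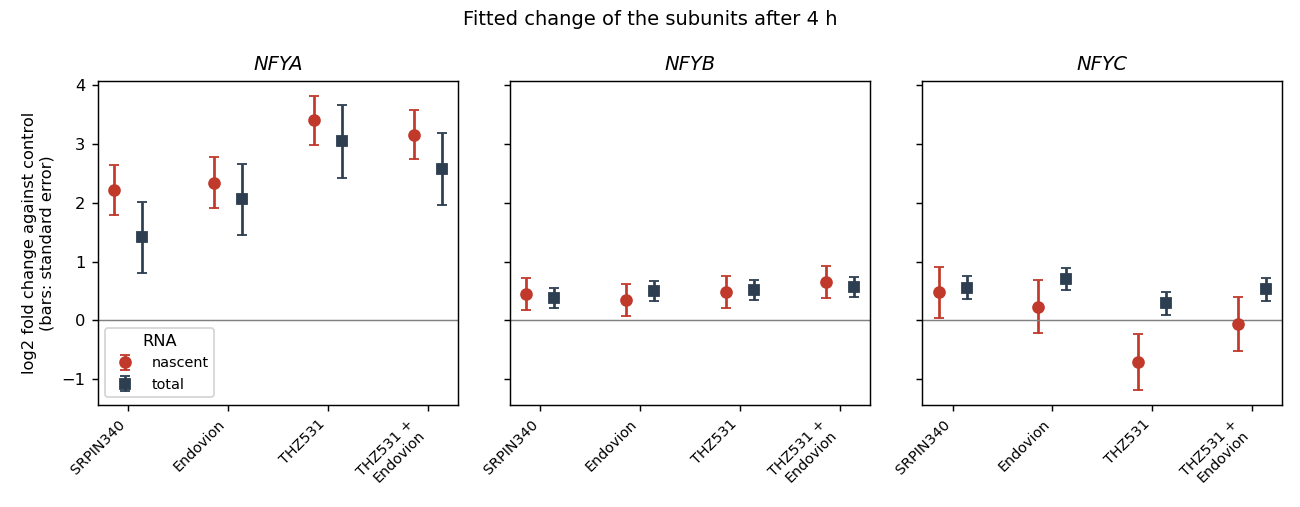
Fitted log2 fold change against control of nascent RNA (circles) and total RNA (squares) for each subunit and treatment, with standard errors as bars and 2 libraries in each group. NFYA lies between 1.41 and 3.40, NFYB between 0.35 and 0.65, and NFYC between -0.71 and 0.70.

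Counted over the subunits, both nascent libraries of a treatment lay above both control libraries for 3 of 3 genes with SRPIN340, where 20.9% of all tested genes did so, and for NFYA and NFYB with Endovion, where 22.0% did. The same held for NFYA alone with THZ531 and for NFYA and NFYB with the combination, at 24.0% of all genes each. NFYC with THZ531 was the only subunit and treatment with both nascent libraries below control, as for 24.6% of genes. In total RNA, all 3 subunits were above control under each of the 4 treatments, against 30.7%, 31.9%, 33.0% and 33.1% of all genes. The subunits were chosen with these values known, and nothing is read from the counts.

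The combination was also set against each of its compounds alone. Against THZ531 alone, the log2 fold changes of nascent RNA were -0.24 ± 0.33 (SE) for NFYA, 0.17 ± 0.27 for NFYB and 0.64 ± 0.49 for NFYC. The NFYA value was -0.74 without THZ531 replicate 1, -0.14 without combination replicate 2 and 0.44 without THZ531 replicate 2, the NFYB value ran from -0.10 without THZ531 replicate 1 to 0.47 without THZ531 replicate 2, with -0.02 and 0.33 without combination replicates 1 and 2, and the NFYC value was -0.05 without combination replicate 1 and 1.09 without combination replicate 2. Against Endovion alone, the values were 0.82 ± 0.35 for NFYA, 0.30 ± 0.27 for NFYB and -0.29 ± 0.46 for NFYC. Both combination libraries of NFYA lay above both Endovion libraries, and the NFYA value was 0.53 without Endovion replicate 2. The NFYB value was 0.20 without Endovion replicate 1, 0.12 without combination replicate 1 and 0.46 without combination replicate 2. The NFYC value was -0.04 and -0.49 without Endovion replicates 1 and 2, and -0.99 and 0.15 without combination replicates 1 and 2.

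The labelled share, the percent of a gene's reads that carry a T>C conversion, was high for NFYA. It was 12.4% (95% Wilson interval 7.78% to 19.2%) and 7.87% (3.86% to 15.4%) in control, 22.0% and 15.9% with SRPIN340, 11.98% and 12% with Endovion, 17.5% and 12.5% with THZ531 and 15.3% and 15.5% with the combination. The median share of the 9946 tested genes was 5.20% in control and 4.61% to 4.92% in the treated groups. The mean NFYA share lay at the 83.1 percentile of these genes in control and between the 93.5 and the 97.6 percentile in the treated groups. It overlapped with control under Endovion and lay above both control libraries under the other 3 treatments, just so for THZ531 replicate 2. For the shares of this and the other subunits, how many of all tested genes lay apart from control in this way was not counted. Wilson intervals cover counting error only, since reads made by PCR are not independent molecules.

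A second measure of labelling was not higher than in control. Conversions per covered T position of NFYA were 0.818% ± 0.402 (SD, n = 2) in control, 0.771% ± 0.156 with SRPIN340, 0.576% ± 0.202 with Endovion, 0.608% ± 0.198 with THZ531 and 0.555% ± 0.0204 with the combination. The few T>C reads of control carried more conversions each: 38 conversions in 16 reads of replicate 1 and 11 in 7 reads of replicate 2, or 2.38 and 1.57 per read. The treated libraries had 1 to 1.18 per read, apart from 1.73 in Endovion replicate 2. The median over genes with at least 5 T>C reads was 1 to 1.03 in each library.

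NFYB had a labelled share close to that of the typical gene, 5.70% ± 0.937 (SD, n = 2) in control and 4.90% to 6.09% as means of the treated groups. Both Endovion libraries, at 4.87% and 4.93%, lay below both control libraries at 6.37% and 5.04%. Over all reads on genes, the share was also lower with Endovion, at 5.06% and 5.17%, than in control, at 5.70% and 5.63%. The mean NFYB share lay at the 55.6 percentile of the tested genes in control and at the 54.8 percentile with Endovion. NFYC had a share of 17.1% and 10.2% in control, 13.6% and 12.7% with SRPIN340 and 11.1% and 7.97% with Endovion. With THZ531 the share was 8.09% and 6.33%, below both control libraries, and with the combination it was 11.7% and 6.03%. Conversions per covered T of NFYC ran the same way, from 0.512% ± 0.141 (SD, n = 2) in control to 0.247% ± 0.0160 with THZ531. The mean NFYC share lay at the 91.4 percentile of the tested genes in control, higher than that of NFYA. It lay at the 93.9 percentile with SRPIN340, 88.7 with Endovion, 74.5 with THZ531 and 85.6 with the combination.

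**Figure D3:**
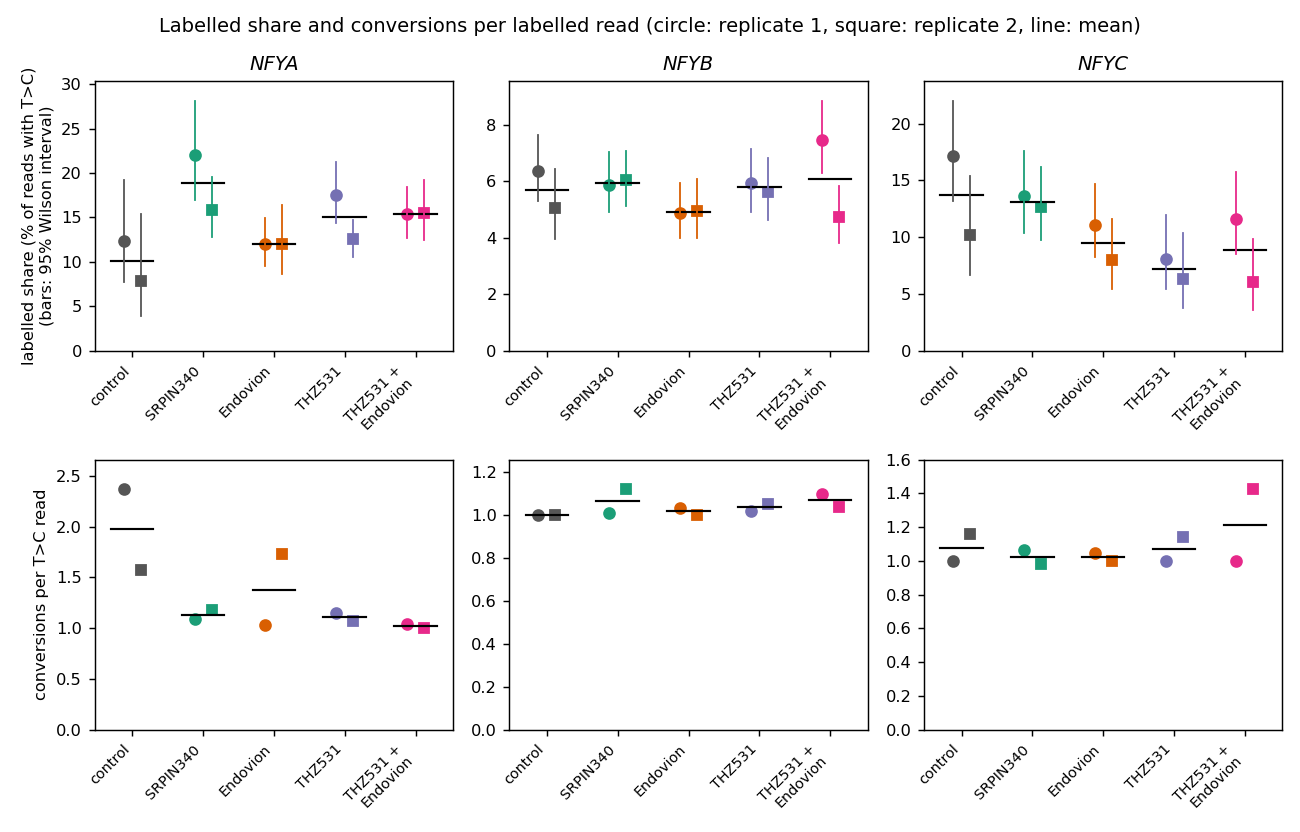
Labelled share (upper row, percent of reads with a T>C conversion, with 95% Wilson intervals) and conversions per T>C read (lower row) of each subunit in the 10 libraries, with group means as lines. The NFYA share goes from a mean of 10.1% in control to means of 11.99% to 18.9% in treated groups, while its conversions per T>C read are highest in control replicate 1, at 2.38.

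Each subunit has nested 3′ UTR intervals, so the reads can be split between a near part and a far part. The near part is nearest the stop codon and is shared by the short and long intervals. These are libraries of 3′ ends, so near-part reads need not count short and long transcripts alike. For NFYA the near part is 540 bp and the far part 2026 bp. The near part had 25 and 23 reads in control and 14 to 59 reads in the treated libraries. The far part had 104 and 66 reads in control, 192 and 432 with SRPIN340, 537 and 259 with Endovion, 415 and 940 with THZ531 and 574 and 421 with the combination. The higher total RNA of NFYA in treated libraries thus lay mostly in the far part.

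Scaled to reads on genes, the far part of NFYA went from 3.33 ± 0.684 CPM (SD, n = 2) in control to 10.9 ± 4.95 with SRPIN340, 16.9 ± 5.61 with Endovion, 31.4 ± 23.5 with THZ531 and 22.6 ± 1.16 with the combination. The near part was at 0.956 ± 0.0533 CPM in control, 0.693 ± 0.0554 with SRPIN340, 0.672 ± 0.181 with Endovion, 1.72 ± 0.551 with THZ531 and 1.25 ± 0.0817 with the combination. Both SRPIN340 and both Endovion libraries were below both control libraries in the near part, and all 4 libraries with THZ531 were above them. The far part took 77.4% ± 4.57 of NFYA reads in control and means of 92.4% to 95.8% in the treated groups, with every treated library above both control libraries. The split was made for NFYA, NFYB and NFYC only, so how many other genes lie apart from control in this way is not known.

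Nascent reads of NFYA came almost entirely from the far part. In the near part, none of the 48 control reads was a T>C read, which allows a share of up to 6.25%, and none of the 39 reads with SRPIN340 or the 30 with Endovion was. THZ531 gave 8 T>C reads among 85 near reads and the combination 1 among 55. In the far part, the share was 13% ± 3.38 (SD, n = 2) in control and 12.5% to 20.3% as means of treated groups.

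The split between the parts of NFYB and NFYC ran differently. The far part of NFYB, past the first 382 bp, took 56.6% ± 0.513 of its reads in control (SD, n = 2) and 61.0% ± 1.71 with SRPIN340. It took 51.2% ± 0.694 with THZ531 and 51.4% ± 2.55 with the combination, with all 4 of those libraries below control. The Endovion libraries of NFYB, at 59.0% and 54.8%, lay on both sides of control.

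The far part of NFYC, past the first 311 bp, took 80.7% and 89.8% of its reads in control and 83.6% and 78.3% with SRPIN340. It took 75.2% and 65.4% with Endovion, 68.4% and 67.9% with THZ531 and 75.4% and 59.9% with the combination, all below control. The near part of NFYC went from 1.40 ± 0.822 CPM (SD, n = 2) in control to 2.60 ± 0.517 with SRPIN340, 4.39 ± 1.15 with Endovion, 3.35 ± 0.393 with THZ531 and 3.96 ± 1.21 with the combination. In these treatments, every near-part level was above both control libraries, the higher of which was at 1.98 CPM. As for NFYA, no share of all genes stands beside these separations, and nothing is read from them.

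**Figure D4:**
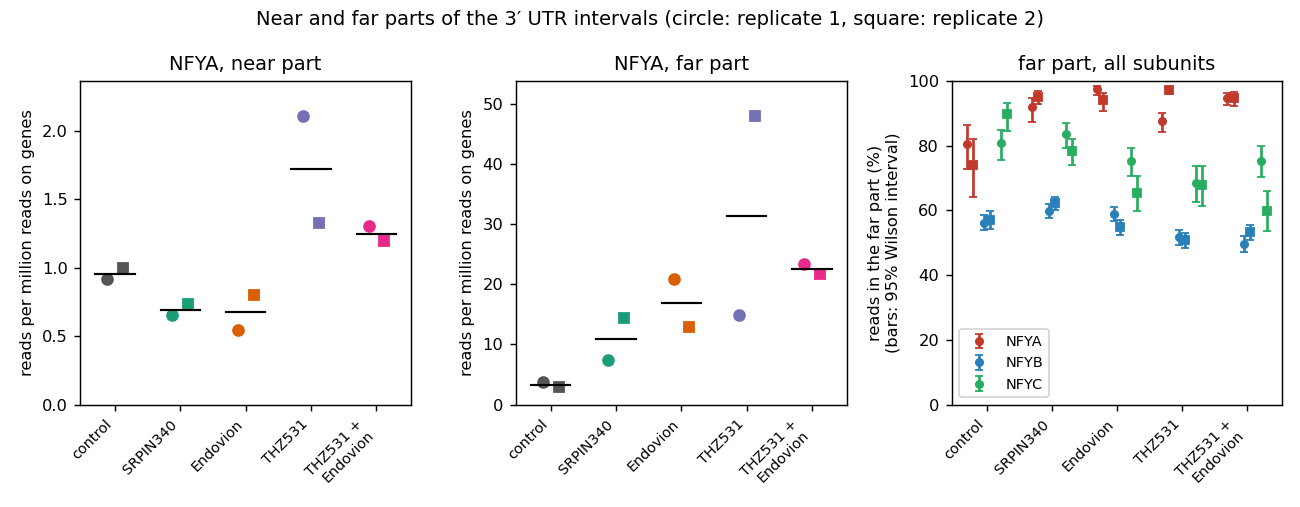
Reads in the near part (left) and far part (middle) of the NFYA 3′ UTR interval, in CPM of reads on genes, and the percent of reads in the far part for all 3 subunits (right, bars are 95% Wilson intervals), by library. The far percent of NFYA is higher in every treated library than in control, and those of NFYB and NFYC are lower in all 4 libraries that received THZ531.

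Genes whose nascent profile was most like that of each subunit were ranked by Pearson's r of log2 CPM over the 10 libraries, among 4092 or 4093 genes with a mean of at least 50 T>C reads. These libraries share groups and depth, so r is only a description. For NFYA the closest were USP14 (r = 0.96), ASPH (0.96), BUD13 (0.96), CCNY (0.96) and NUDT21 (0.95). For NFYB they were EIF5A (0.93), SHOC2 (0.93), NDUFA4 (0.92), ANXA7 (0.92) and ZCRB1 (0.91). For NFYC they were LMBRD2 (0.91), SLC38A1 (0.89), UBTF (0.88), CANX (0.87) and BICRAL (0.87). NFYA and NFYB had r = 0.83 with each other, whereas NFYC had 0.19 with NFYB and -0.12 with NFYA.

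Around the subunits, 5 lists hold 56 genes that NF-Y is known to regulate or to work with, or that have the same fold as NFYB and NFYC. They were tested by edgeR's quasi-likelihood test with p adjusted by Benjamini-Hochberg over all genes. In nascent RNA, 51 were tested. With SRPIN340 1 rose and 1 fell, with Endovion 2 and 2, with THZ531 4 and 2, and with the combination 4 and 3, beside 1.04%, 2.66%, 7.46% and 8.1% of all tested genes in either direction. The median log2 fold changes of the lists together were -0.04, 0.02, 0.15 and 0.08, and those of all genes lay between -0.02 and -0.01. Leaving out 1 library gave 0 to 3, 0 to 7, 3 to 6 and 4 to 7 calls. Counts fell to 0, 1, 3 and 4 without control replicate 2. They were 1 and 0 without either SRPIN340 library, 1 and 0 without either Endovion library, 3 without THZ531 replicate 2 and 4 without combination replicate 1, while Endovion had 7 without control replicate 1. With the plain sum of overlapping intervals, the calls that held were CCNB1 and CREB1 with THZ531 and with the combination, and CHRAC1 with the combination. With all reads as library size, the calls of CCNB1 and XBP1 with SRPIN340, STARD4 with THZ531 and HERPUD1 and HSP90B1 with the combination were lost.

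Most cell cycle targets of NF-Y did not pass the test in nascent RNA. CCNB1, which encodes cyclin B1 of the entry into mitosis, was the only one of 14 that did, and it fell under each treatment. Its T>C reads were 421 and 455 in control, 301 and 295 with SRPIN340, 268 and 197 with Endovion, 247 and 166 with THZ531 and 159 and 135 with the combination. CCNB1 fell by 0.71 on the log2 scale with SRPIN340 (adjusted p = 0.0311, edgeR), by 0.68 with Endovion (adjusted p = 0.0236), by 0.95 with THZ531 (adjusted p = 0.000367) and by 1.25 with the combination (adjusted p = 3.7e-06). The call was lost for SRPIN340 and for Endovion without control replicate 2 or without either library of that treatment, and it held for THZ531 and the combination without any 1 library. In total RNA, CCNB1 fell by 0.41 with THZ531 (adjusted p = 0.0113, edgeR) and by 0.43 with the combination (adjusted p = 0.00914). The total RNA call with the combination was lost without combination replicate 1.

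Endoplasmic reticulum stress targets rose where they passed the test in nascent RNA. HERPUD1, which acts in the degradation of misfolded proteins, had a log2 fold change of 1.15 ± 0.25 (SE) with Endovion (adjusted p = 0.00239, edgeR) and 0.81 ± 0.25 with the combination (adjusted p = 0.0346), with both calls lost without control replicate 2. Without Endovion replicate 2 the first call was lost too, as was the second without combination replicate 1. XBP1, a transcription factor of the stress response, rose by 0.96 ± 0.25 with SRPIN340 (adjusted p = 0.034), a call lost without any 1 of the 4 libraries compared. HSP90B1, a chaperone of this compartment, rose by 0.70 ± 0.16 with THZ531 (adjusted p = 0.00206) and by 0.58 ± 0.16 with the combination (adjusted p = 0.0134), neither called without control replicate 2, nor the latter without combination replicate 1. In total RNA, HERPUD1 fell by 0.62 with THZ531 (adjusted p = 0.00215) and rose by 0.87 ± 0.13 with Endovion (adjusted p = 0.00215).

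Of 9 sterol and fatty acid synthesis targets, HMGCS1, an early enzyme of cholesterol synthesis, fell in nascent RNA by 0.67 with Endovion (adjusted p = 0.0196, edgeR) and by 0.61 with the combination (adjusted p = 0.0192). Both calls were lost without control replicate 1 or without either treated library. STARD4, a sterol carrier, rose by 1.19 ± 0.38 (SE) with THZ531 (adjusted p = 0.0378, edgeR), and this call was lost without control replicate 2, THZ531 replicate 2 or combination replicate 2. In nascent RNA, the sterol list as a whole had a median of -0.07 on the log2 scale with SRPIN340 and -0.34 with Endovion. The median was 0.19 with THZ531 and -0.03 with the combination.

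Among 12 tested DNA-binding partners and cofactors, CREB1 and SP1 moved in opposite directions with THZ531. CREB1, the cyclic AMP response element factor, had 164 and 187 T>C reads in control and 60 and 30 with THZ531, and it fell by 1.85 (adjusted p = 3e-06, edgeR). It fell by 1.44 with the combination (adjusted p = 0.000138), and both calls held without any 1 library. SP1, a factor of GC-rich promoters, rose by 1.72 ± 0.40 (SE) with THZ531 (adjusted p = 0.0029) and by 1.40 ± 0.41 with the combination (adjusted p = 0.0196). These SP1 calls were lost without control replicate 2 or without replicate 2 of the treatment, whereas its total RNA rose by 1.53 ± 0.14 (adjusted p = 4.54e-06) and 1.18 ± 0.14 (adjusted p = 4.65e-05) with calls that held without any 1 library.

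Of the 7 other histone-fold proteins, CHRAC1, a small subunit of a chromatin remodeling complex, was called in nascent RNA. It rose by 1.68 ± 0.34 (SE) with Endovion (adjusted p = 0.00271, edgeR), 1.60 ± 0.34 with THZ531 (adjusted p = 0.00238) and 1.76 ± 0.34 with the combination (adjusted p = 0.000857). The Endovion call was lost without control replicate 2 or either Endovion library, and the THZ531 call without THZ531 replicate 2. As a whole, the histone-fold list had nascent medians between -0.16 and -0.08 on the log2 scale in the 4 comparisons with control.

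In total RNA, 55 of the 56 list genes were tested. With SRPIN340 2 were called, both higher, while 9 rose and 6 fell with Endovion, 16 and 6 with THZ531, and 16 and 5 with the combination, beside 1.96%, 11.4%, 30.7% and 29% of all tested genes in either direction. Leaving out 1 library gave 0 to 10, 2 to 16, 11 to 22 and 8 to 23 calls, with 0, 2, 11 and 11 without control replicate 2. For SRPIN340 the count moved by over 1.5 times whichever of the 10 libraries was left out. For Endovion it was 2 and 3 without either Endovion library and 9 without either SRPIN340 library or combination replicate 2. For THZ531 it was 12 without THZ531 replicate 2, and for the combination 8 and 10 without either combination library. In the cell cycle list, 3 of 15 genes were called with THZ531, each lower, and 1 fell with Endovion, while 2 rose and 1 fell with the combination. In the sterol list, 4 were called with THZ531, each higher, and 3 with Endovion, each lower, and 1 fell with the combination. In the endoplasmic reticulum list, 4 rose and 1 fell with Endovion, 4 rose and 2 fell with THZ531, and 5 rose and 1 fell with the combination. Among partners and cofactors, 3 rose with Endovion, 5 rose and 1 fell with THZ531, and 6 rose and 1 fell with the combination. In the histone-fold list, 2 rose and 1 fell with Endovion, 3 rose with THZ531, and 3 rose and 1 fell with the combination.

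Promoter windows of the list genes held CCAAT or ATTGG in 34 of the 49 genes with an entry, against 39.7% of all genes with one. These were 14 of 14 cell cycle targets, 9 of 9 endoplasmic reticulum stress targets and 4 of 5 sterol targets, but 5 of 15 partners and cofactors and 2 of 6 histone-fold proteins. The target lists were written from genes known for such sites. Among the tested genes with a promoter entry, 3515 had a match. Their nascent medians on the log2 scale were 0.002 with SRPIN340, 0.01 with Endovion, -0.02 with THZ531 and 0.01 with the combination. The 4389 genes without a match had medians of -0.01, -0.02, -0.01 and -0.01 in the same order.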

How the data were processed

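The authors labelled, purified and alkylated the RNA, libraries of its 3′ ends were prepared and sequenced by a service, and T>C conversions were counted with SLAM-DUNK. The submitters' processing notes also name Bowtie2 2.3.4.1, SAMtools 1.6, DESeq2 1.38.2 and hg38. The deposited tables hold raw counts per 3′ UTR interval, namely of reads, of reads with T>C, of converted positions and of T positions covered. The T content of 4998 of 4998 other intervals and of 14 of 14 subunit intervals equalled that of hg38, with no tolerance. Whether molecular identifiers reduced the counts is not given in the sources used here.

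Of 104653 intervals, 92910 lay on standard chromosomes and matched a GENCODE v44 transcript. Unmatched intervals on these chromosomes held 3.53% of the T>C counts summed over intervals, and were left out. In that sum, reads in overlapping intervals count more than once. Within a gene, the interval with most reads was kept from each overlapping set, which left 57437. T>C reads (nascent RNA) and reads (total RNA) were fitted with edgeR 4.0.16 in R 4.3.3 (TMM, filterByExpr, robust quasi-likelihood, 10 libraries, 5 residual degrees of freedom), over 9946 and 14690 genes. Genes passed at an adjusted p under 0.05. CPM of single libraries are scaled by TMM, and those of the markers and of the near and far parts by reads on genes alone. The fit was also run on counts simulated with the spread that edgeR fitted to these data, which cannot show that the model suits them. DESeq2 1.42.0 was an alternative. Replicate numbers did not pair the samples. Replicates differed by more than sampling noise in each group (chi-square per degree of freedom 3.54 to 4.90 in nascent RNA).

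The subunits, gene lists and tests were chosen with earlier results of these data known. Named genes are the 3 subunits, up to 2 list genes per list, comparison and direction with the smallest adjusted p in nascent RNA, and the 5 genes most like each subunit. A combination of SRPIN340 with THZ531 is not analysed here. One marker gene is not reported here.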

Additional observations from a re-analysis of the deposited data

Results flagged for a closer look

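NFYC in total RNA was flagged because its libraries with THZ531 lay above their comparison group without Endovion and below it with Endovion. Without Endovion, both THZ531 libraries lay above both control libraries, with a ratio of mean levels of 1.23. The lower THZ531 library, at 10.02 CPM, was only just above the higher control library, at 9.98 CPM. The fitted log2 fold change was 0.29 ± 0.19 (SE), and it was 0.09 without control replicate 2. With Endovion, both libraries lay below both Endovion libraries, with a ratio of 0.883 and a fitted log2 fold change of -0.18 ± 0.19 (SE). The difference between these effects was not tested. It was picked from among nascent RNA, total RNA and labelled share of the 3 subunits, after their values were known.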

How the results depend on the processing

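The subunits' fold changes moved by less than the spread between replicates under 195 of 198 comparisons of an alternative fit with the reported one, and labelled shares under 20 of 24. The alternatives were DESeq2 size factors, no filter on low counts, DESeq2, the plain sum of overlapping intervals, all reads as library size (nascent RNA) and the replicate block. With the plain sum, which counts the near part of NFYC several times, total NFYC changed by 0.90 (Endovion), 0.52 (THZ531) and 0.75 (THZ531 with Endovion) on the log2 scale. By conversions over covered T positions, the log2 ratio of the NFYA labelled share against control fell below 0, to -0.084 (SRPIN340), -0.50 (Endovion), -0.43 (THZ531) and -0.56 (THZ531 with Endovion). Calls in the NF-Y lists in nascent RNA dropped with the plain sum to 0 (SRPIN340), 0 (Endovion), 2 (THZ531) and 3 (THZ531 with Endovion), and to 1 for SRPIN340 with all reads as library size. In total RNA with SRPIN340, where the reported count was 2, the lists had 1 call with DESeq2 size factors, 12 with no filter, 9 with DESeq2, 0 with the plain sum and 1 with the replicate block. The cause was not tested. Same-numbered replicates did not deviate together (correlations of -0.07 to 0.06 in nascent RNA and of -0.15 to 0.20 in total RNA, where 1 of 10 pairs was over 0.1), so the numbers were not taken as pairs. Apart from that count of 1, the replicate block moved no list count by more than 1.5 times, and the call of STARD4 with THZ531 in nascent RNA was lost with it. DESeq2 also lost that call and that of HERPUD1 with the combination.

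Leaving out 1 library at a time gave these ranges. Nascent NFYA against control was 1.88 to 2.75 (SRPIN340), 1.95 to 2.87 (Endovion), 2.72 to 3.94 (THZ531) and 2.82 to 3.69 (THZ531 with Endovion), and -0.74 to 0.44 for the combination against THZ531. Total NFYA was 2.01 to 3.58 (THZ531) and -1.07 to 0.51 (combination against THZ531). Nascent NFYB was 0.24 to 0.73 (SRPIN340), 0.19 to 0.76 (THZ531), 0.44 to 0.93 (combination) and -0.10 to 0.47 (combination against THZ531), and total NFYB 0.16 to 0.72 (THZ531) and -0.20 to 0.35 (combination against THZ531). Nascent NFYC was 0.074 to 1.10 (SRPIN340), -0.17 to 0.85 (Endovion), -1.11 to -0.081 (THZ531) and -0.76 to 0.56 (combination), -0.055 to 1.09 against THZ531 and -0.99 to 0.15 against Endovion. Total NFYC was 0.36 to 0.75 (SRPIN340), 0.50 to 0.89 (Endovion), 0.090 to 0.48 (THZ531) and 0.32 to 0.72 (combination). The log2 ratio of the NFYA share was 0.61 to 1.27 (SRPIN340), -0.049 to 0.61 (Endovion), 0.28 to 0.93 (THZ531) and 0.32 to 0.97 (combination). That of the combination was -0.27 to 0.39 for NFYB and -1.18 to -0.21 for NFYC. List calls ran from 0 to 3, 0 to 7, 3 to 6 and 4 to 7 in nascent RNA and from 0 to 10, 2 to 16, 11 to 22 and 8 to 23 in total RNA, in the order SRPIN340, Endovion, THZ531 and combination. With 7 and 16 T>C reads on NFYA in control, the size of its nascent change is limited by depth. A library left alone in its group was assumed to vary like the other groups.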
